A study of Mus musculus with 8 samples.

Results

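The Hox genes of mouse, homeobox transcription factor genes that lie in 4 clusters, were followed along the epithelium of the embryonic gut. They were chosen by name: 38 Hox genes of the 23393 gene symbols in the expression table, 10 of the Hoxa cluster on chromosome 6, 10 of Hoxb on chromosome 11, 9 of Hoxc on chromosome 15 and 9 of Hoxd on chromosome 2 (GRCm38, GENCODE M21 annotation). All 38 were in the table, and antisense and microRNA genes were not counted among them. Poly(A) RNA was sequenced from untreated mouse embryos at E16.5, late in gestation, in 8 libraries, 2 each from the colon, the proximal small intestine (called intestine here), the hindstomach (the glandular part of the rodent stomach) and the forestomach (its squamous part). Per the labels' protocols the embryos carried ShhCre and R26YFP/+, a reporter pair in which Cre made from the Shh locus switches on YFP in gut epithelium, and all 4 tissues shared this genotype. The colon and intestine epithelium was shaken loose in 5 mM EDTA, that of the hindstomach in 10 mM EDTA, and that of the forestomach was peeled by hand after Dispase, so that isolation and tissue cannot be told apart for the stomach libraries. The layers were frozen for RNA without a stated sort, and the protocols do not say whether the 2 libraries of a tissue came from separate embryos, so p-values reflect spread that may be technical only.

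Hox genes are known for giving cells their position along the body axis. Within a cluster they sit in the order in which they act along that axis, and genes of the same rank in the 4 clusters form paralog groups, numbered from 1 at the anterior to 13 at the posterior end. In the gut both the endoderm, which forms the epithelium, and the surrounding mesoderm, which forms connective tissue, muscle and vessels, express Hox genes, and the group 13 genes are known for their role in the hindgut.

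The authors deposited FPKM, in which fragments are divided by transcript length and library total, so that levels can be compared between genes. Summed FPKM ran from 328490 to 378497 in 7 libraries and was 545227 in the library labelled forestomach replicate 1. That library stood apart: its 10 most abundant genes held 52.5% of its summed FPKM, against 6.27% to 17.4% elsewhere, and Pearson's r with its partner over the 12894 genes tested was 0.713, against 0.959 to 0.984 for the other pairs. It held the glandular stomach transcript Pgc at 97970 FPKM, against 2.55 FPKM in forestomach replicate 2, while the squamous keratin Krt5 was at 166.6 and 2574 FPKM in these libraries. Colon replicate 1 correlated at 0.972 with intestine replicate 1 and at 0.959 with colon replicate 2. The 8 small-intestinal markers summed to 14039 and 4299 FPKM in the colon, against 18690 and 27519 FPKM in the intestine. In the hindstomach they summed to 3563 and 4104 FPKM. The number of reads is unknown; low values fall on steps that gave depths relative to intestine replicate 1 of 0.852 for colon replicate 2, 0.948 for hindstomach replicate 1 and 0.937 for the library labelled forestomach replicate 1, and of 0.426 to 0.495 for the other 4, each uncertain by a factor of 2. The epithelial gene Epcam was at 557 and 511 FPKM in the colon, 559.7 and 564 in the intestine, 427 and 374 in the hindstomach and 83.2 and 146 in the forestomach. Of the colon markers, the carbonic anhydrase gene Car1 was at 3.30 and 2.53 FPKM in the colon and listed at 0 in both intestine libraries, and its relative Car4 was at 0.0621 and 0.0641 FPKM in the colon. Of the 7 colon markers 4 had both colon libraries above both intestine libraries. The others included the water channel gene Aqp8, at 47.0 and 11.4 FPKM in the colon and 48.3 and 70.7 FPKM in the intestine. The anion exchanger gene Slc26a3 was at 19.1 and 5.83 FPKM in the colon and 26.7 and 34.3 FPKM in the intestine. Slc37a2 was at 43.2 and 10.3 FPKM in the colon and 39.1 and 59.4 FPKM in the intestine.

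Hox transcripts were most abundant in the colon and, through a few genes, in the forestomach. Summed over the 38 genes they reached 99.3 and 187 FPKM in colon replicates 1 and 2, 13.2 and 4.49 FPKM in the intestine, 10.4 and 9.16 FPKM in the hindstomach, and 45.7 and 133 FPKM in forestomach replicates 1 and 2. The colon expressed many of them: 21 and 31 genes had at least 1 FPKM in its libraries, against 3 and 0 in the intestine, 3 and 3 in the hindstomach and 15 and 5 in the forestomach. The intestine and hindstomach were thus low throughout, and the 2 libraries of the forestomach differed in both the total and the number of genes.

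**Figure D1:**
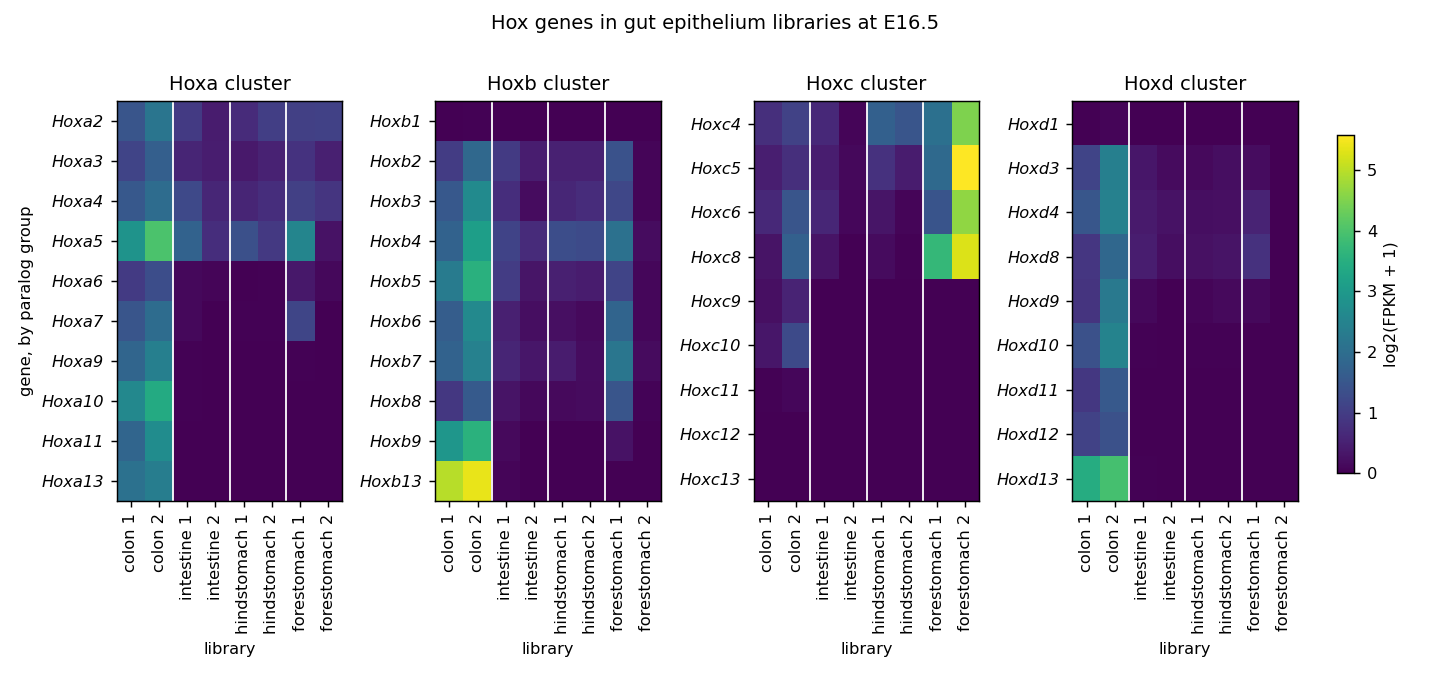
Color gives log2(FPKM + 1) of each of the 38 Hox genes (rows, by cluster and paralog group) in each of the 8 libraries (columns, by tissue, white lines between tissues). Genes of groups 9 to 13 are visible in the 2 colon libraries of the Hoxa, Hoxb and Hoxd clusters, and Hoxc4, Hoxc5, Hoxc6 and Hoxc8 in the 2 forestomach libraries.

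The makeup of the Hox signal differed by tissue. Genes of groups 9 to 13 held 65.5% and 55.3% of summed Hox FPKM in the colon, 2.63% and 0.766% in the intestine, 1.08% and 1.58% in the hindstomach, and 0.718% and 0.0266% in the forestomach. By cluster, Hoxb genes held 51.8% and 48.0% of the sum in the colon and Hoxc genes 2.32% and 4.16%. In the forestomach the Hoxc cluster held 43.1% of the sum in the library labelled replicate 1 and 97.6% in replicate 2. In the intestine and hindstomach groups 4 and 5 held the greatest share, 54.2% and 52.9% in the intestine and 68.3% and 61.0% in the hindstomach.

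**Figure D2:**
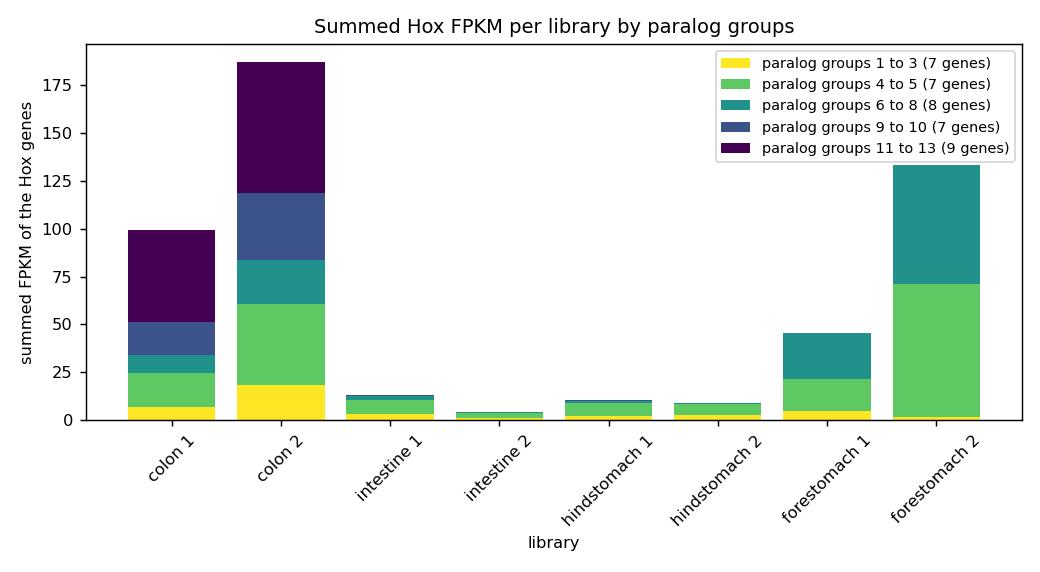
Stacked bars give the summed FPKM of the 38 Hox genes in each library, split by paralog groups. The dark segments of groups 9 to 13 sum to 65.0 and 103.5 FPKM in the 2 colon libraries and to at most 0.346 FPKM in any other library.

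Each gene's lowest and highest libraries gave a first view of where it was expressed, without a test. Both colon libraries lay above all other 6 for 25 of the 38 genes, or 65.8%, against 8.31% of all genes in the table. For groups 9 to 13 this held for 14 of 16 genes, the others being Hoxc12, listed at 0 in every library, and Hoxc13, which did not exceed 0.0146 FPKM. For groups 1 to 8 it held for 11 of 22 genes. Both forestomach libraries lay above the rest for 4 of the 38 genes, or 10.5%, against 4.72% of all genes, namely Hoxc4, Hoxc5, Hoxc8 and the barely detected Hoxc13. None of the 38 genes had both intestine libraries (7.94% of all genes) or both hindstomach libraries (8.38% of all genes) above the rest.

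The first comparison set the colon against the intestine, the 2 parts of the bowel sampled. Posterior Hox genes were higher in the colon, led by Hoxb13, Hoxd13, Hoxb9 and Hoxa10, and their transcripts were near or at 0 in the intestine. A gene was called when the limma fit on log2(FPKM + 1) over all 4 tissues gave a Benjamini-Hochberg adjusted p under 0.05 over all genes tested and at least a 2-fold change. Called higher in the colon were 6 Hox genes, all of groups 9 to 13, and none was called lower; among all 12894 genes tested 0.38% were called higher and 0% lower. Of the 38 genes, 27 had at least 1 FPKM in at least 2 libraries and so entered this fit, and a posterior gene could enter through the colon alone. With no filter on low values 37 could be tested: 7 were called higher, the 7th being Hoxd12, against 0.24% of 19986 genes, 36 had a positive difference, and their median log2 difference was 1.24, against 0.12 over all genes.

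Of the group 13 genes, which mark the posterior end of the clusters, Hoxb13 and Hoxd13 had the highest colon means of the 38 genes. Hoxb13, at 96194316 to 96197447 on chromosome 11, stood at 30.2 and 41.1 FPKM in the colon, at 0.0487 and 0 FPKM in the intestine, at 0.0079 and 0 FPKM in the hindstomach and at 0 and 0.00813 FPKM in the forestomach. Both colon libraries were far above the other 6, and Hoxb13 had the highest mean of the 38 genes in the colon, 35.7 ± 7.65 FPKM (SD, n = 2). Its log2 difference between colon and intestine was 5.15 ± 0.22 (SE; limma, Benjamini-Hochberg adjusted p = 0.00363).

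Hoxd13, known with Hoxa13 for the patterning of the hindgut, genital tubercle and digits, stood at 9.95 and 14.2 FPKM in the colon, at 0.020 and 0.00673 FPKM in the intestine and at 0 in all 4 stomach libraries. The colon libraries did not overlap with the rest, and the log2 difference from the intestine was 3.67 ± 0.23 (SE; limma, adjusted p = 0.00815). Hoxa13 was lower, with 3.20 and 4.12 FPKM in the colon, 0.00334 and 0.00676 FPKM in the intestine, 0.00353 and 0 FPKM in the hindstomach and 0 in both forestomach libraries. It was again present in the colon libraries and close to 0 elsewhere, with a log2 difference of 2.20 ± 0.20 between colon and intestine (SE; limma, adjusted p = 0.0221). The fourth gene of the group, Hoxc13, was listed at 0 in both colon libraries.

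The RefSeq promoters of Hoxa13 and Hoxd13, the 250 bases before the annotated start, are shown because these genes shared the colon pattern; Hoxb8, a middle gene of the Hoxb cluster, is shown beside them because its promoter alone among those matched held the motifs searched. RefSeq gave promoters for 22 of the 38 genes, 24 in all (GRCm38.p6). Capitals mark matches to the Cdx-type motif CAATAAA or the posterior Hox-type motif TCGTAAA on either strand, which do not overlap each other; CAATAAA is written TTTATTG where it lies on the other strand.
Hoxa13 (chr6:52260881-52261130, minus strand): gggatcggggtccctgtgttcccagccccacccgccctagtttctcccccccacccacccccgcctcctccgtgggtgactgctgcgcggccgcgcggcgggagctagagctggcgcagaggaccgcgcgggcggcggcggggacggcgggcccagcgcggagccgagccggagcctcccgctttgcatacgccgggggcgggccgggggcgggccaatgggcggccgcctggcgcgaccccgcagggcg
Hoxd13 (chr2:74667975-74668224, plus strand): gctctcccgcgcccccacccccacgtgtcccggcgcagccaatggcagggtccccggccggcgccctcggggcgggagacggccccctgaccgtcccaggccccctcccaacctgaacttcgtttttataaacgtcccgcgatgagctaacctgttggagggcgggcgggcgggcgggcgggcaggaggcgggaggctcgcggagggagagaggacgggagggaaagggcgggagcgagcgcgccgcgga
Hoxb8 (chr11:96281655-96281904, plus strand): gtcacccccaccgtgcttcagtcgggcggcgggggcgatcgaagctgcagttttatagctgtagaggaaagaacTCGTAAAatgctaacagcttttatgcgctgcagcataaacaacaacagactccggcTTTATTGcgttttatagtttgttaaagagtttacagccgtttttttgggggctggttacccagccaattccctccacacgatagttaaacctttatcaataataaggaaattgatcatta
The Hoxb8 promoter held TCGTAAA from 176 to 170 bases and CAATAAA, on the other strand, from 120 to 114 bases before the start. None of the 11 promoters of groups 9 to 13 held either motif, while 4.2% of all 32851 RefSeq promoters held CAATAAA and 0.478% held TCGTAAA. The Hoxa13 and Hoxd13 windows were 80.0% and 74.4% G or C and that of Hoxb8 44.4%, against medians of 58.6% over the 24 Hox promoters and 52.4% over all.

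Within the Hoxa cluster the posterior genes Hoxa9, Hoxa10 and Hoxa11, known from limb and reproductive tract patterning, shared the pattern. Hoxa10 stood at 5.12 and 9.69 FPKM in the colon, 0.0177 and 0 FPKM in the intestine, 0 and 0.00593 FPKM in the hindstomach and 0 and 0.00548 FPKM in the forestomach. It was present in the colon libraries and near 0 in the others, a log2 difference of 3.00 ± 0.29 from the intestine (SE; limma, adjusted p = 0.0262). Hoxa9 had 2.53 and 4.34 FPKM in the colon and 0.0237 and 0 FPKM in the intestine, and did not exceed 0.0190 FPKM in the stomach, with a log2 difference of 2.10 ± 0.25 (SE; limma, adjusted p = 0.0437). Hoxa11 had 2.51 and 5.5 FPKM in the colon and 0.00722 and 0 FPKM in the intestine, and at most 0.00385 FPKM in the stomach. Its 2 colon libraries lay apart from all others, but the difference of 2.25 ± 0.31 was not called in the fit of all libraries (SE; limma, adjusted p = 0.0716). Of the exonic bases of Hoxa11, 35% overlap the antisense gene Hoxa11os, and since the strand of the counting is not given in the sources used here the reads of the 2 genes cannot be told apart.

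In the Hoxb cluster a step lay between Hoxb9 and the anterior genes. Hoxb9, whose known roles include patterning of the ribs, stood at 6.61 and 10.7 FPKM in the colon, 0.109 and 0.00649 FPKM in the intestine, 0.0102 and 0 FPKM in the hindstomach and 0.199 and 0 FPKM in the forestomach. The colon libraries were again clear of the rest, with a log2 difference of 3.16 ± 0.27 from the intestine (SE; limma, adjusted p = 0.0213). In the Hoxd cluster Hoxd12, neighbour of Hoxd13, stood at only 1.13 and 1.63 FPKM in the colon and at no more than 0.00659 FPKM in any other library. It was not called in the fit of all libraries with the filter (log2 difference 1.24 ± 0.20, SE; limma, adjusted p = 0.108) and was called with no filter (limma, adjusted p = 0.0195). Hoxd9, Hoxd10 and Hoxd11 lay between 0.792 and 4.62 FPKM in the colon and at or below 0.0998 FPKM elsewhere, and Hoxc9, Hoxc10 and Hoxc11 between 0.0173 and 1.37 FPKM in the colon and at or below 0.0145 FPKM elsewhere.

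**Figure D3:**
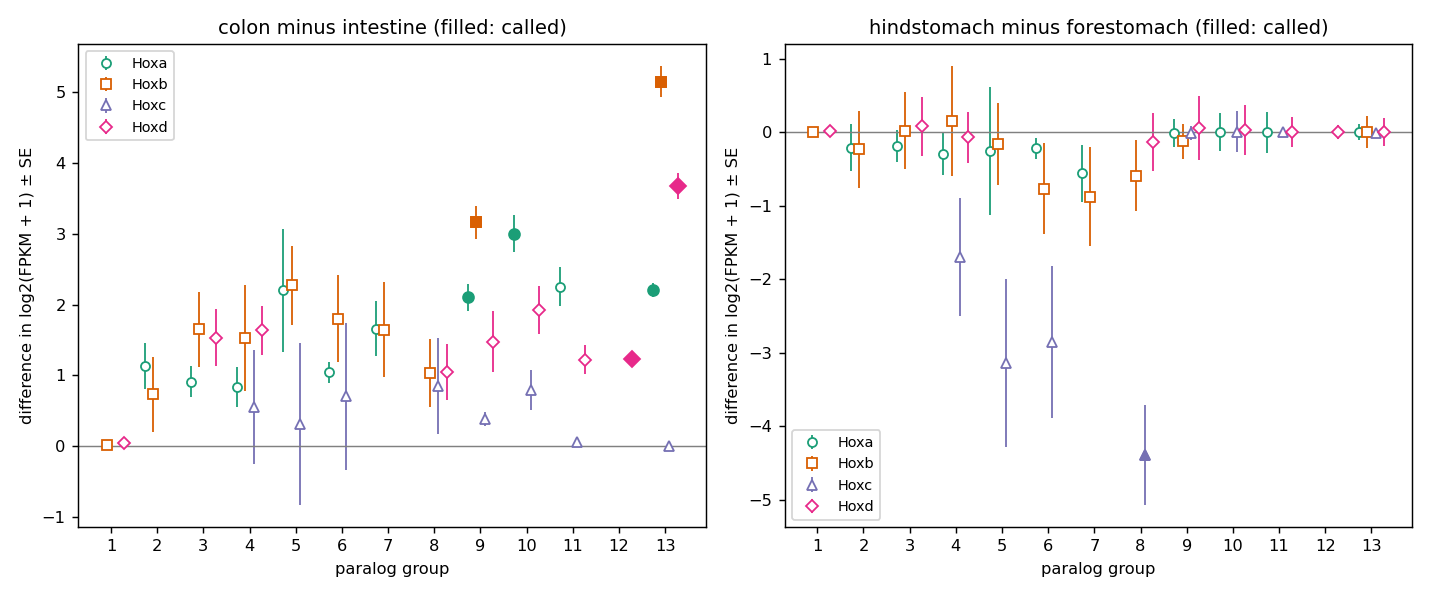
Points give the difference in log2(FPKM + 1) with its SE for 37 Hox genes by paralog group (horizontal axis), from the limma fit with no filter on low values; the left panel is colon minus intestine and the right panel hindstomach minus forestomach, shape and color give the cluster, and filled points were called. In the left panel the filled points all lie at group 9 or above, up to 5.15 for Hoxb13; in the right panel only Hoxc8, at -4.39, is filled.

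Of the 22 genes of groups 1 to 8, none was called between colon and intestine with all libraries, and 20 had both colon libraries above both intestine libraries, against 45.2% of all genes. Hoxa5, known for its part in lung and stomach patterning, had 6.32 and 15.0 FPKM in the colon, 2.35 and 0.650 FPKM in the intestine, 1.57 and 0.908 FPKM in the hindstomach and 4.78 and 0.210 FPKM in the forestomach. The colon libraries were highest, with the library labelled forestomach replicate 1 next, and the log2 difference from the intestine was 2.20 ± 0.81 (SE; limma, adjusted p = 0.333). Hoxb5, known from enteric nervous system and vessel development, had 3.98 and 10.7 FPKM in the colon, 0.987 and 0.252 FPKM in the intestine, 0.397 and 0.348 FPKM in the hindstomach and 1.21 and 0.0644 FPKM in the forestomach. The colon was again highest without overlap, and its log2 difference was 2.27 ± 0.53 (SE; limma, adjusted p = 0.247). Hoxb4, known for its effect on blood stem cells, had 2.35 and 7.70 FPKM in the colon, 1.16 and 0.612 FPKM in the intestine, 1.49 and 1.39 FPKM in the hindstomach and 3.23 and 0.140 FPKM in the forestomach, where the libraries of the colon and forestomach overlapped.

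Hoxb6 and Hoxb7, neighbours in the Hoxb cluster, overlapped in the same way. Hoxb6 had 2.15 and 5.21 FPKM in the colon, 0.395 and 0.153 FPKM in the intestine, 0.164 and 0.0987 FPKM in the hindstomach and 2.5 and 0.0639 FPKM in the forestomach. Hoxb7 had 2.35 and 4.49 FPKM in the colon, 0.487 and 0.260 FPKM in the intestine, 0.333 and 0.138 FPKM in the hindstomach and 3.54 and 0.128 FPKM in the forestomach. For both, the library labelled forestomach replicate 1 lay between or near the colon values while forestomach replicate 2 was at the low end. Hoxa7 had 1.78 and 2.93 FPKM in the colon, 0.0833 and 0.0116 FPKM in the intestine, 0.0182 and 0.0269 FPKM in the hindstomach and 1.24 and 0.0125 FPKM in the forestomach. Hoxd4 had 1.83 and 4.50 FPKM in the colon, 0.331 and 0.210 FPKM in the intestine, 0.154 and 0.171 FPKM in the hindstomach and 0.466 and 0.0122 FPKM in the forestomach. For these the colon was highest without overlap; 52.3% of the exonic bases of Hoxd4 overlap other annotated genes, so its value may include their reads.

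By paralog groups, in the fit with no filter, the median log2 difference between colon and intestine was 0.91 for 7 genes of groups 1 to 3, 1.53 for 7 genes of groups 4 and 5, 1.05 for 8 genes of groups 6 to 8 and 1.93 for 15 genes of groups 9 to 13, against 0.12 over all genes. The other members of groups 1 to 8 did not exceed 5.37 FPKM in the colon, the value of Hoxb3, and Hoxb1 and Hoxd1 did not exceed 0.0573 FPKM in any library. The 2 colon libraries differed in level: all 31 genes with at least 1 FPKM in either had more in replicate 2, by 1.29 to 9.98 times with a median of 2.26. This ratio had a median of 2.73 for the 5 genes of groups 1 to 3, 2.42 for groups 4 and 5 and 2.34 for groups 6 to 8. It was 2.37 for the 6 genes of groups 9 and 10 and 1.44 for the 6 genes of groups 11 to 13. How many of all genes were higher in colon replicate 2 was not counted.

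**Figure D4:**
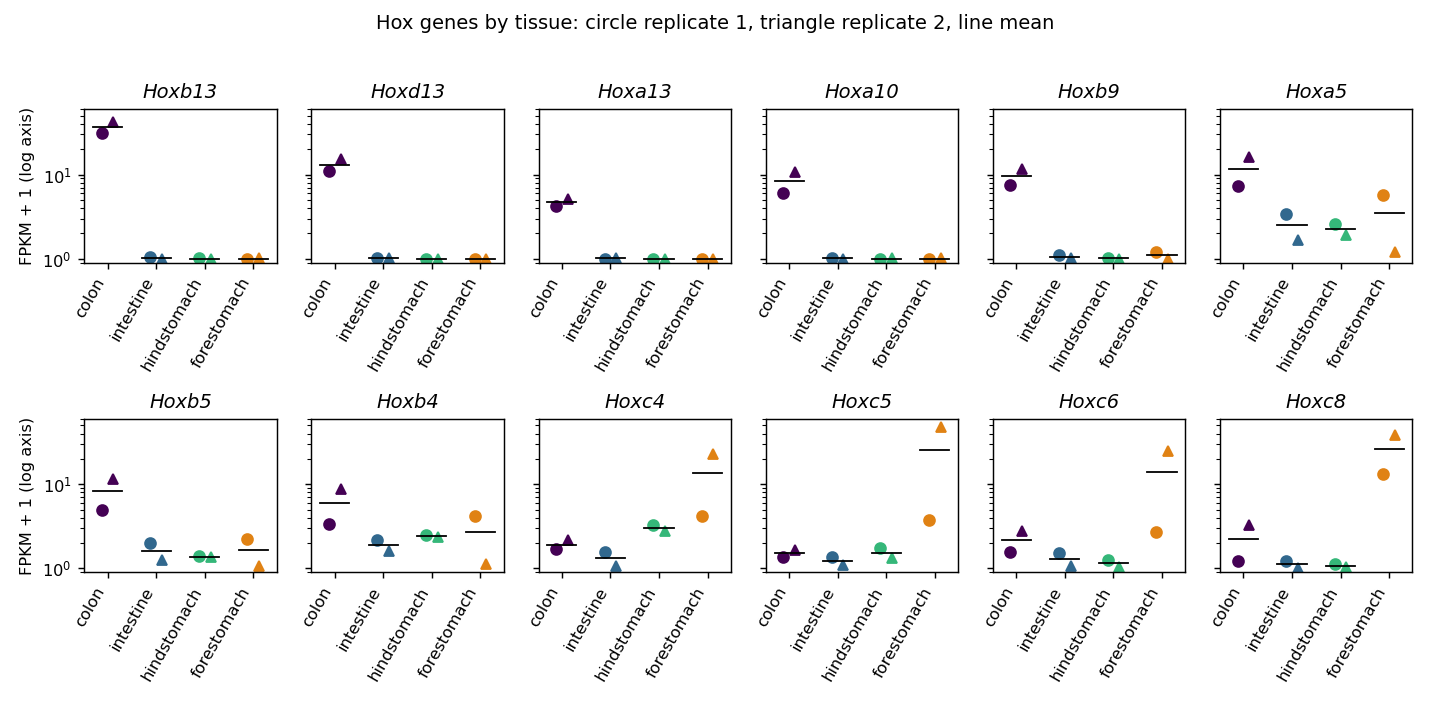
Each panel shows FPKM + 1 on a log axis for 1 Hox gene by tissue (colon, intestine, hindstomach, forestomach), with a circle for replicate 1, a triangle for replicate 2 and a line at the mean. Hoxb13, Hoxd13, Hoxa13, Hoxa10 and Hoxb9 stand above 0 in the colon libraries, and Hoxc4, Hoxc5 and Hoxc8 are highest in both forestomach libraries.

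The number of calls depended on which libraries shared the fit. Without the library labelled forestomach replicate 1, 9 Hox genes were called higher in the colon than in the intestine, against 2.17% of all genes; the additional ones were Hoxa7 (log2 difference 1.66, limma adjusted p = 0.0258), Hoxa11 (2.25, limma adjusted p = 0.0325) and Hoxd12 (1.24, adjusted p = 0.0292). Leaving out forestomach replicate 2 gave the same number, 9, against 2.21% of all genes. Leaving out colon replicate 2 left Hoxb13 and Hoxd13, among 7 genes called in all. Leaving out either hindstomach library left Hoxb13, among 3 genes called. Without intestine replicate 1 or without intestine replicate 2 no gene of the 12894 was called, Hox or other, with median log2 differences of 1.75 and 1.53 over the 27 Hox genes. Libraries were also split by their estimated depth. The difference for Hoxb13 was 5.33 between those estimated as deeper and 4.97 between those estimated as shallower. For Hoxd13 it was 3.90 and 3.44. The depths are uncertain, as given above, so whether the libraries of a class were of like depth is not established. With a term for these classes added, a choice made after seeing the data, Hoxb9, Hoxb13 and Hoxd13 were called. Dividing FPKM by median-of-ratios size factors moved the all-gene median from 0.23 to 0.05 and left 5 calls, without Hoxa9.

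Transcripts of some other cell types were also higher in the colon than in the intestine. Of 23 marker genes of mesenchyme and smooth muscle, all detected in both colon libraries, 22 had both colon libraries above both intestine libraries, as did 34 of the 38 Hox genes and 45.2% of all genes. Their summed level was 957 and 2135 FPKM in the colon, 484 and 99.3 FPKM in the intestine, 252 and 440.2 FPKM in the hindstomach and 5119 and 100.9 FPKM in the forestomach. The median log2 difference of the 22 tested between colon and intestine was 2.33, with none called (limma). Both colon libraries lay above all other 6 for 10 of these 23 markers and for 7 of 12 enteric neuron and glia markers. The same held for 14 of 16 Hox genes of groups 9 to 13 and for 8.31% of all genes. Of 11 endothelium and blood markers, 6 had both colon libraries above both intestine libraries, and of 9 pancreas and liver markers none did. Markers of enteric neurons and glia, 11 of 12 of them higher in both colon than in both intestine libraries, summed to 36.1 and 116 FPKM in the colon, 18.7 and 11.9 FPKM in the intestine, 19.7 and 15.6 FPKM in the hindstomach and 22.5 and 3.01 FPKM in the forestomach. Groups 9 to 13 of the Hox genes summed to 65.0 and 103.5 FPKM in the colon, 0.346 and 0.0344 FPKM in the intestine, 0.112 and 0.145 FPKM in the hindstomach, and 0.328 and 0.0356 FPKM in forestomach replicates 1 and 2. Within each of the 4 tissues, the library with the higher mesenchyme marker sum also had the higher sum of groups 9 to 13. Outside the colon these Hox sums did not exceed 0.346 FPKM, so their order there rests on very little signal. Between tissues the library labelled forestomach replicate 1 had the highest marker sum and a Hox sum below that of either colon library. Which cells of the colon preparations carried the Hox transcripts was not tested, and in bulk RNA fewer cells of a type and less RNA per cell cannot be told apart.

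**Figure D5:**
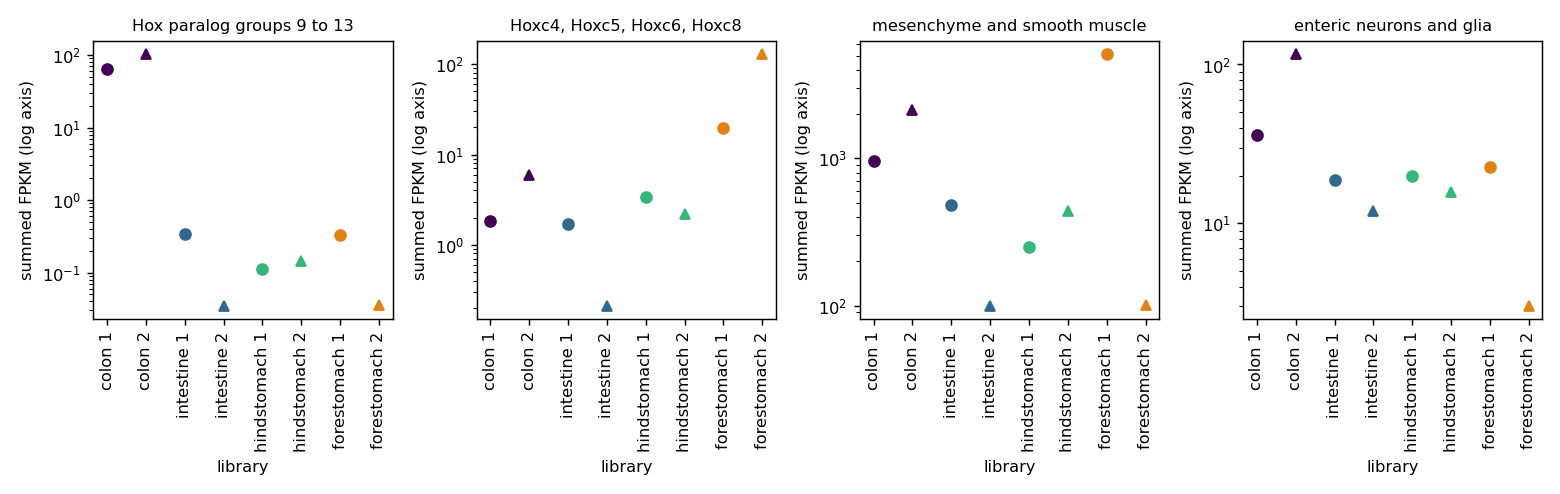
Points give summed FPKM on a log axis in each library for Hox groups 9 to 13, for Hoxc4, Hoxc5, Hoxc6 and Hoxc8, for 23 mesenchyme and smooth muscle markers and for 12 enteric neuron and glia markers. The marker sum of mesenchyme is highest in the library labelled forestomach replicate 1, at 5119 FPKM, where Hox groups 9 to 13 sum to 0.328 FPKM, and forestomach replicate 2, at 100.9 FPKM for these markers, has the highest sum of the 4 Hoxc genes, 130.2 FPKM.

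A further comparison set the hindstomach against the forestomach, the glandular and squamous parts of the stomach by their labels. The gastrokine gene Gkn1, a glandular marker, was however at 37.3 and 84.4 FPKM in the hindstomach and at 27487 and 0.0143 FPKM in forestomach replicates 1 and 2. The fit of all libraries therefore does not set purely glandular against squamous epithelium. Hoxc8, a gene of thoracic identity in the skeleton, was lower in the hindstomach, while its neighbours Hoxc4, Hoxc5 and Hoxc6 had lower values there that were not called with all libraries. Of the 27 Hox genes tested, Hoxc8 was called lower and none higher; 1.33% of all genes were called lower and 4.26% higher. With no filter Hoxc8 was again the gene called, against 0.575% of all genes called lower. Hoxc8 stood at 0.123 and 0.0274 FPKM in the hindstomach, against 12.1 and 37.8 FPKM in forestomach replicates 1 and 2. The libraries did not overlap, and the log2 difference was -4.39 ± 0.64 (SE; limma, Benjamini-Hochberg adjusted p = 0.0211).

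The other genes of this block differed between the 2 forestomach libraries by up to 16.9 times. Hoxc5 had 0.728 and 0.339 FPKM in the hindstomach and 2.76 and 46.7 FPKM in the forestomach, with 0.378 and 0.672 FPKM in the colon and 0.372 and 0.0811 FPKM in the intestine. Hoxc6 had 0.243 and 0.0483 FPKM in the hindstomach and 1.72 and 24.1 FPKM in the forestomach, with 0.551 and 1.78 FPKM in the colon and 0.521 and 0.0624 FPKM in the intestine. Hoxc4 had 2.25 and 1.77 FPKM in the hindstomach and 3.13 and 21.7 FPKM in the forestomach, with 0.679 and 1.14 FPKM in the colon and 0.563 and 0.0585 FPKM in the intestine. In each case both forestomach libraries lay above both hindstomach libraries, and only for Hoxc6 did a colon library exceed the library labelled forestomach replicate 1. The log2 differences of -3.14 ± 1.08 for Hoxc5, -2.85 ± 0.98 for Hoxc6 and -1.69 ± 0.75 for Hoxc4 were not called in the fit of all libraries (SE; limma, adjusted p = 0.124, 0.124 and 0.189).

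The block ended sharply on chromosome 15. Hoxc8 lies at 102990607 to 102994111 and Hoxc9, the next gene toward the posterior end, at 102976439 to 102985099 (GRCm38). Hoxc9 stood at 0.0145 and 0.00738 FPKM in the forestomach and Hoxc10 at 0 in both libraries. The 4 genes Hoxc4, Hoxc5, Hoxc6 and Hoxc8 together held 32.3% and 23.8% of summed Hox FPKM in the hindstomach, against 43.1% and 97.6% in the forestomach.

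The library labelled forestomach replicate 1 also held Hoxa and Hoxb transcripts that forestomach replicate 2 nearly lacked, among them Hoxa5, Hoxb6 and Hoxb7. Hoxb8 was at 1.75 and 0.0340 FPKM in the forestomach, whereas Hoxa2, an anterior gene, was at 1.09 and 1.12 FPKM. Mesenchyme and smooth muscle markers differed between the same libraries, with sums of 5119 and 100.9 FPKM, while the sum of the 4 Hoxc genes was 19.7 and 130.2 FPKM and so ran the other way. The part of these markers in the differences was not tested.

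Both forestomach libraries bore on these calls. Without the library labelled forestomach replicate 1, Hoxc4, Hoxc5, Hoxc6 and Hoxc8 were all called lower in the hindstomach, against 7.54% of all genes, with log2 differences of -2.92, -4.97, -4.46 and -5.17 (limma, adjusted p = 0.00251, 0.000335, 0.00173 and 0.00284). Without forestomach replicate 2, Hoxa7, Hoxb6, Hoxb7, Hoxb8, Hoxc5 and Hoxc8 were called lower, against 6.77% of all genes. Without either hindstomach library or either intestine library no Hox gene was called, though 82 to 190 of all genes were. The all-gene median of the difference was 0.39, and 0.02 after median-of-ratios scaling, under which Hoxc8 was again called.

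Both intestine and hindstomach had few Hox transcripts. None of the 27 Hox genes tested was called between them in either direction by limma, and none had an unadjusted p under 0.05, while 5.03% of all genes were called. With no filter none of 37 was called, against 1.96% of all genes. The highest of the 38 in the intestine was Hoxa5, at 2.35 and 0.650 FPKM, and the highest in the hindstomach Hoxc4, at 2.25 and 1.77 FPKM. Hoxc4 was lower in the intestine in both libraries, by a log2 difference of -1.22 ± 0.75 (SE; limma, adjusted p = 0.362). With the library labelled forestomach replicate 1 left out, the same difference had an SE of 0.25 and was called (limma, adjusted p = 0.0236), against 9.39% of all genes called lower, and likewise without forestomach replicate 2. These values set no bound on smaller differences, since 4 residual degrees of freedom stand behind each test.

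Set as bowel (colon and intestine) against stomach (hindstomach and forestomach), 7 Hox genes of the 37 tested with no filter were called higher, against 4.07% of all genes, and none lower, against 1.62%. With the filter 7 were also called, against 7.25% higher and 3.33% lower over all genes. These genes reached 1 FPKM in the colon only. They were Hoxa9, Hoxa10, Hoxa11, Hoxa13, Hoxb9, Hoxb13 and Hoxd13, whose intestine values, given above, did not exceed 0.109 FPKM, so that the mean of the bowel rested on the colon. The log2 difference was 2.60 ± 0.16 for Hoxb13, 1.86 ± 0.16 for Hoxd13 and 1.13 ± 0.22 for Hoxa11 (SE; limma, adjusted p = 0.000555, 0.00154 and 0.0210). Without the library labelled forestomach replicate 1, 12 were called higher, against 10.4% of all genes, with Hoxa5, Hoxb5, Hoxb6, Hoxb7 and Hoxd4 added, and Hoxc4, Hoxc5, Hoxc6 and Hoxc8 were called lower, against 7.17%. The 4 comparisons share libraries, so their calls are not independent of each other.

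Noncoding genes in and beside the clusters were read as a separate list of 20, of which 17 were in the table and 5 had enough signal to be tested. Of these, 3 were called higher in the colon than in the intestine, where 0.38% of all genes were. All 3 entered the test through the colon libraries alone, so nothing is read from their count. Hoxa11os, antisense to Hoxa11, had 7.50 and 11.2 FPKM in the colon and 0.0242 and 0 FPKM in the intestine, with a log2 difference of 3.33 ± 0.24 (SE; limma, adjusted p = 0.0110). Gm53, a long noncoding gene at 96251105 to 96264868 on chromosome 11, between Hoxb13 and Hoxb9, had 2.72 and 3.76 FPKM in the colon and 0.0125 and 0 FPKM in the intestine, with a log2 difference of 2.06 ± 0.21 (SE; limma, adjusted p = 0.0268). Hottip, beside Hoxa13, had 1.18 and 1.65 FPKM in the colon and 0.00287 and 0 FPKM in the intestine; it was called without the library labelled forestomach replicate 1 (limma, adjusted p = 0.0258) and not with it (limma, adjusted p = 0.0983).

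The third called gene was the microRNA gene Mir196a-1, at 96265164 to 96265265 on chromosome 11, also between Hoxb13 and Hoxb9. It had 11.97 and 21.1 FPKM in the colon, 0.0810 and 0.164 FPKM in the intestine and 0 in all stomach libraries, with a log2 difference of 3.92 ± 0.29 between colon and intestine (SE; limma, adjusted p = 0.0119). Poly(A) libraries do not measure mature microRNAs, so this is the signal of longer transcripts over the hairpin. The mature RNAs of the family, which in mouse are known to direct cleavage of Hoxb8 mRNA, are shown with the seed, bases 2 to 8, in capitals, because Mir196a-1 in the Hoxb and Mir196b in the Hoxa cluster share it (RefSeq, GRCm38.p6).
miR-196a-5p (chr11:96265187-96265208, plus strand): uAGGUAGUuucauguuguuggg
miR-196b-5p (chr6:52230129-52230150, minus strand): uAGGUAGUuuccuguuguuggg
The seed is the same in both. Mir196b was at 0.616 and 0.571 FPKM in the colon and 0 and 0.196 FPKM in the intestine and did not have enough signal to be tested, and Hoxb8 itself was at 0.874 and 1.98 FPKM in the colon and 0.232 and 0.0824 FPKM in the intestine.

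Beyond the ends of the clusters some genes also had both colon libraries above all other 6. Of 12 protein-coding genes bordering the clusters, 2 did, Ttll6 and Calcoco2, against 8.31% of all genes. Calcoco2 had 0.592 and 1.38 FPKM in the colon and at most 0.0598 FPKM elsewhere. Evx1 and Evx2, homeobox genes at the posterior ends of Hoxa and Hoxd, had 0.782 and 1.47 FPKM and 0.358 and 0.495 FPKM in the colon and at most 0.0471 FPKM elsewhere, too little to be tested. Of 10 tested protein-coding genes bordering the clusters none was called between colon and intestine; Ttll6, a tubulin-modifying enzyme gene near Hoxb13, had 3.65 and 4.98 FPKM in the colon and 0.191 and 0.186 FPKM in the intestine, and was called without the library labelled forestomach replicate 1 (limma, adjusted p = 0.0258) and not with it (adjusted p = 0.0594).

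Genes known to act with or on Hox genes were read from separate lists. Cdx1 and Cdx2 are the caudal-type factors that specify intestinal epithelium and regulate Hox genes. They were high in colon and intestine, lower in the hindstomach and near or at 0 in the forestomach. Cdx1 had 138 and 134 FPKM in the colon, 79.6 and 84.8 FPKM in the intestine, 13.8 and 8.99 FPKM in the hindstomach and 0.0302 and 0 FPKM in the forestomach. Cdx2 had 112 and 91.1 FPKM in the colon, 133 and 135 FPKM in the intestine, a mean of 20.5 FPKM in the hindstomach and 0.0273 and 0 FPKM in the forestomach. Neither was called between colon and intestine, and both were called higher in the intestine than in the hindstomach, by 2.77 ± 0.22 and 2.67 ± 0.23 on the log2 scale (SE; limma, adjusted p = 0.00701 and 0.00833), and higher in the hindstomach than in the forestomach, by 3.58 and 4.38 (limma, adjusted p = 0.00125 and 0.000673). The hindstomach libraries also held small-intestinal markers, with sums of 3563 and 4104 FPKM. Which cells of these libraries carried the Cdx transcripts was not tested.

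Of 7 tested TALE homeodomain genes, whose proteins bind DNA together with Hox proteins, none was called between colon and intestine, and Meis2 was called lower in the intestine than in the hindstomach. Meis2 had 1.5 and 1.13 FPKM in the intestine and 7.26 and 7.11 FPKM in the hindstomach, a log2 difference of -1.83 ± 0.36 (SE; limma, adjusted p = 0.0467). Of 21 Polycomb and trithorax genes, which keep Hox genes off or on, and 11 tested genes of the retinoic acid pathway, which induces anterior Hox genes, none was called in any of the 4 comparisons with all libraries (limma), although Aldh1a2, which makes retinoic acid, had 15.9 and 30.8 FPKM in the colon and 3.66 and 0.856 FPKM in the intestine. Without the library labelled forestomach replicate 1, 2 of the 21 were called lower in the intestine than in the hindstomach, where 9.39% of all genes were, and 1 was called lower in the hindstomach than in the forestomach, where 7.54% of all genes were. That fit left 1 forestomach library. In it Rara, Rarg, Crabp2 and Aldh1a2 were called in comparisons other than colon against intestine (limma). The share of all genes called in any of these comparisons was not counted, so nothing is read from these calls.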

How the data were processed

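The expression table holds FPKM per gene and library as deposited; per the submitters' processing notes, reads were aligned with STAR 2.4.2a to mm10 (GRCm38). How FPKM were computed, with which annotation and strand setting, is not given in the sources used here. There were 4 further columns, which belong to none of the samples analysed and were left out.

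FPKM were analysed as log2(FPKM + 1), for genes that reached 1 FPKM in 2 or more libraries, with limma 3.58.1 in R 4.3.3 (4 tissue means, eBayes with a mean-variance trend) and Benjamini-Hochberg adjustment over all genes tested in a comparison. Fold changes on this scale understate the change of low genes. The Hox genes and the other gene lists were chosen with earlier results of these data known. Genes named with all values were those called in a comparison, with or without the library labelled forestomach replicate 1, or averaging at least 5 FPKM in a tissue; other Hox genes and marker genes are given by range or as checks. The fits were tested on simulated data. Alternatives were other pseudocounts (0.1 and 0.5), no filter, median-of-ratios scaling, no trend, no minimum fold, the forestomach left out, a replicate block, a depth term and each library left out. Library depth is known only in relative terms, so no detection limits were set. Some genes of these lists are not reported here.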

Additional observations from a re-analysis of the deposited data

How the results depend on the processing

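For colon minus intestine, 6 Hox genes were called with all libraries. The count was 2 with a replicate block, 3 with the depth term, and 0 to 9 when each library was left out in turn. It was 4 to 9 under the other settings (pseudocounts, no filter, scaling, no trend, no minimum fold, forestomach left out). For intestine minus hindstomach the count was 0, became 1 with the forestomach left out of the fit, and was 0 to 1 when each library was left out. For hindstomach minus forestomach it was 1, and 0 to 6 when each library was left out. For bowel minus stomach it was 7, and 5 to 16 when each library was left out; the highest count came without the library labelled forestomach replicate 1. With median-of-ratios scaling Hoxc8 was called lower in the bowel and Hoxa9 was no longer called higher. When a library is left out, the remaining one is assumed to vary like the other groups.

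With the replicate number as a block the counts were 2, 0, 1 and 7 in these 4 comparisons. The numbers do not pair the libraries: the correlation of their deviations from the tissue means was -0.578 for colon and intestine and 0.270 for intestine and hindstomach. The depth term also stands for the crossed numbering of colon and intestine. Single genes were followed only in comparisons where they were called with all libraries or without the library labelled forestomach replicate 1. Of their alternative values, 406 kept their side of the threshold, 33 gained a call and 51 lost one, with none changing direction. Some gains were fixed by this choice, since a fit used to choose genes was also counted. Some Hox genes outside it changed direction. Of 27 tested, 6 had a positive difference for hindstomach minus forestomach with all libraries, and 15 without the library labelled forestomach replicate 1. Hoxb7 went from -0.877 to 0.127. Apart from the alternatives that leave out samples, the cause of each change was not tested. A gene with low FPKM rests on few reads, and the number of reads is unknown.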
